A study of Mus musculus with 7 samples.

Results

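Chromatin accessibility at the step from proB to preB cells was read from the ATAC-seq peaks of WT mice. ATAC-seq marks DNA that is not packed away in nucleosomes, and a peak is a stretch where its fragments pile up above the level of the rest of the genome. A lost peak was a WT proB peak with no WT preB peak overlapping it by at least 1 bp, and a gained peak was the reverse. There were 24475 lost peaks among the 91668 peaks of the WT proB library and 8200 gained peaks among the 76465 peaks of the WT preB library, of 647973 peaks in the 7 libraries of the series. WT cells came from Ergfl/fl mice, in which the floxed Erg allele was intact because no Cre was present. The study bred adult mice of both sexes on a C57BL/6J background. The proB cells were sorted from bone marrow by a panel that included B220+ IgM- IgD- NK1.1- CD11c- CD43+ CD24+ (Hardy fraction C), and the preB cells by the same markers except that they were CD43- (Hardy fraction D). For reference, the other libraries were WT pre-proB, Erg KO pre-proB (Rag1CreT/+;Ergdelta/delta, in which Cre driven from Rag1 deletes Erg in lymphoid cells), and Rescue pre-proB, proB and preB, which carried that deletion and a heavy chain allele, IgHVH10tar, that was already rearranged. In these bulk libraries, fewer cells of a type and less accessibility per cell cannot be told apart. Each population was a single library. The differences below are therefore those between 2 libraries, with no spread between animals and no test, and the 95% Wilson intervals cover counting error only.

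During the proB stage the immunoglobulin heavy chain locus Igh is assembled from V, D and J segments. A heavy chain that pairs with the surrogate light chain, made of Vpreb and Igll1 proteins, forms the pre-B cell receptor, which drives a burst of division. The cells then leave the cycle as small preB cells, lose the progenitor receptor Kit and the surface protein CD43, and open the kappa light chain locus Igk for recombination.

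The WT proB list covered 64.1 Mb with a median peak width of 495 bp, and the WT preB list covered 53.3 Mb with a median width of 492 bp. The background pileup, which is the depth against which the peak caller judged a summit, was 4.42 fragments in WT proB and 3.56 in WT preB, so the proB library was 1.24 times as deep by this measure. The weakest called summits held 12 and 11 fragments, so a site listed without a peak can have had any number of fragments below these. All peaks lay within the GRCm38 (mm10) chromosome lengths. Both WT lists had a promoter peak at the B cell genes Pax5, Ebf1, Cd79a and Cd79b, and neither had any peak assigned to Cd3e, Cd3g, Gata1, Hba-a1 or S100a8, which mark T cells and other blood lineages. Other genes of the same lineages did have promoter peaks in proB, among them Lck (fold 22.9), Lat (65.9), Gata3 (80.1), Klf1 (42.1) and Cebpa (23.3).

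The strongest lost and the strongest gained peaks outside promoters are printed here as examples of each class. Beside them stand the strongest lost peak of the Tcrb locus and the strongest gained peak of the Igk locus. Each run holds the summit base and 100 bases on either side of it, 5′ to 3′, from RefSeq GRCm38. Capitals mark every match to 1 of the 23 motifs searched, which are the short sequences that families of transcription factors recognise.

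Lost peak in a Zbtb20 intron, chr16:43376882-43377082, plus strand: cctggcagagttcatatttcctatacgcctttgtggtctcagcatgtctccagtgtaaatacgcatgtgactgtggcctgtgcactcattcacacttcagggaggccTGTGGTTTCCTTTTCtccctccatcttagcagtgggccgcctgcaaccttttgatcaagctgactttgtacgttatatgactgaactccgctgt

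Lost peak in a Chst11 intron, chr10:83149894-83150094, plus strand: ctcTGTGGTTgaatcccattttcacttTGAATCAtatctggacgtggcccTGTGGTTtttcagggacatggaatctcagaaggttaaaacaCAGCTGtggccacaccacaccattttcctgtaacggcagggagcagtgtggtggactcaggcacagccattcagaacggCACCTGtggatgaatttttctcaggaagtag

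Lost peak in the Tcrb locus, chr6:41215951-41216151, plus strand: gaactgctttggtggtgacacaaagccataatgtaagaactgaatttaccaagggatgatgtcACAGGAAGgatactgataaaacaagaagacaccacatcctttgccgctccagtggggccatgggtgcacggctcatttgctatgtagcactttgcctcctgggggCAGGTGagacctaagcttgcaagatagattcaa

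The Zbtb20 peak held a RUNX match (TGTGGTT) that ran into an interferon response type match (ISRE, GAAANNGAAA on the other strand). The Chst11 peak held 2 RUNX matches, an AP-1 match (TGANTCA) and both kinds of E-box, CAGGTG and CAGCTG. The Tcrb peak held an ETS match (ACNGGAAG), the family to which Erg belongs, and a CAGGTG E-box.

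Gained peak in a Prim2 intron, chr1:33460837-33461037, plus strand: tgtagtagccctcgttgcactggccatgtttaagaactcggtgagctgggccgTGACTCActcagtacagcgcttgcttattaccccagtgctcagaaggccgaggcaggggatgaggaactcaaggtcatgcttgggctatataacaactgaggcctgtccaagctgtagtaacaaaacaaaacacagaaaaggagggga

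Gained peak near Brd1, chr15:88684390-88684590, plus strand: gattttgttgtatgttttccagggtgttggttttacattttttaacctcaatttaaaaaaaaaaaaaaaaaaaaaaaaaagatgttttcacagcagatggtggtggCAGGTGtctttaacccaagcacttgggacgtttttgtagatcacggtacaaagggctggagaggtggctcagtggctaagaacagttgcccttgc

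Gained peak in the Igk locus, chr6:70240253-70240453, plus strand: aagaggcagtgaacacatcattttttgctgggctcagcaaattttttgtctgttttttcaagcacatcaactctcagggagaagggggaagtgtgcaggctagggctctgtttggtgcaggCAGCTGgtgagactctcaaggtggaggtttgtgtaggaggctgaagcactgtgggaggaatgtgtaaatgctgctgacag

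The Prim2 peak held only an AP-1 match, the Brd1 peak only a CAGGTG E-box and the Igk peak only a CAGCTG E-box. A match describes the letters in the window and does not show that a factor bound there.

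In the full lists the share of peaks lost was larger than the share gained. Lost peaks made up 26.7% of WT proB peaks (26.4 to 27.0) and gained peaks 10.7% of WT preB peaks (10.5 to 10.9), or 2.98 lost for each gained. With the proB list cut to its strongest 76465 peaks, the length of the preB list, 14234 were lost (18.6%) and 12814 gained (16.8%), or 1.11 lost for each gained. Lists of equal length bring this ratio near 1 by construction, since they can then differ only through peaks that overlap more than 1 peak, so it says nothing of which direction prevailed. What depth contributed to the excess of losses in the full lists was not tested.

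Lost and gained peaks were mostly weak and narrow. The median width was 317 bp for lost peaks against 620 bp for shared proB peaks, and 280 bp for gained peaks against 538 bp for shared preB peaks. The median fold, which is the summit pileup over the background, was 4.25 in lost and 11.3 in shared proB peaks, and 4.38 in gained and 10.3 in shared preB peaks. With each list cut into deciles of −log10 p, 70.5% of WT proB peaks were lost in the weakest decile, 23.7% in the fifth, 0.316% (29 peaks) in the ninth and 0 of 9167 in the strongest, which allows a share of up to 0.0419% by the Wilson interval. Of WT preB peaks 37.8% were gained in the weakest decile and 0 of 7647 in the strongest. At the strongest sites the libraries could thus differ only in height, which is given for named promoters below. At the edge of the definition, 211 lost and 136 gained peaks lay under 100 bp from a peak of the other list, and 90 shared proB peaks overlapped their match by 50 bp or less.

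**Figure D1:**
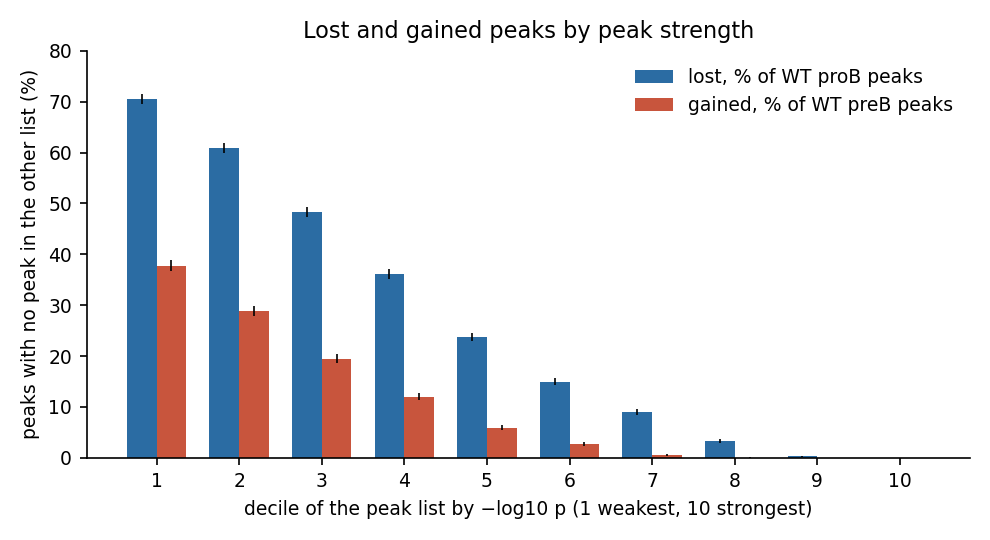
Percent of WT proB peaks that were lost (blue) and of WT preB peaks that were gained (red), by decile of each peak list ordered by −log10 p, with 95% Wilson intervals (1 library each). The lost share falls from 70.5% in the weakest decile to 0 in the strongest, and the gained share from 37.8% to 0.

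Most lost and gained peaks lay outside promoters. A promoter peak was one within 1000 bp of an annotated transcription start site (TSS). Promoters held 12.6% of lost peaks (12.2 to 13.0; 3088 peaks) and 7.21% of gained peaks (6.67 to 7.79; 591 peaks), against 25.9% of shared proB peaks. Introns held 48.3% of lost and 50% of gained peaks against 39.9% of shared proB peaks, and intergenic DNA 34.7% and 38.8% against 30.2%. Turned around, 15.1% of promoter peaks and 30.1% of the other peaks of WT proB were lost, and 3.24% of promoter peaks and 13.1% of the other peaks of WT preB were gained. The median distance from summit to the nearest TSS of a protein-coding gene was 24332 bp for lost, 29685 bp for gained and 14999 bp for shared proB peaks. The summit windows of gained peaks were also lower in GC (median 46.8%, against 49.3% in lost and 51.2% in shared peaks). Windows with at least 50% of bases in annotated repeats made up 14.6% of gained (13.9 to 15.4), 9.32% of lost (8.96 to 9.69) and 6.6% of shared proB peaks. Among distal peaks with a −log10 q under 20 these shares were 15.4% of gained, 10.9% of lost and 12.7% of shared proB peaks.

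Few genes had a promoter peak in only 1 of the populations. Of 21938 protein-coding genes, 13371 had a promoter peak in both, 1007 in WT proB only (7% of the 14378 with a proB promoter peak) and 102 in WT preB only (0.757% of the 13473 with a preB promoter peak). The promoter peaks seen in proB only were weak, with a median fold of 4.43 against 42.1 where both libraries had one. In 36 of the 1007 and 10 of the 102 genes the promoter peak itself was shared, and the peak of the other library ended outside the 1000 bp window. These included most of the strongest. Zscan10 was such a gene, where a proB peak of fold 111 overlapped a preB peak of fold 66.6, and so were Thy1, a surface protein of T cells and early progenitors (24.7 and 8.11), and Bicral, a subunit of a BAF chromatin remodelling complex (9.78 in proB and 11.6 in preB). Of the 10 strongest promoters seen in proB only, Fermt1, an activator of integrins, was the sole one whose peak was lost outright (fold 23.1), and 7 of the 9 peaks nearest that gene were lost. Of the 10 strongest seen in preB only, Hepacam2 (10.1), Slc22a12 (8.77), a urate transporter, A1cf (7.67), a cofactor of RNA editing, and Slfn2 (7.23), which keeps lymphocytes quiescent, had peaks that were gained outright. Thy1 lost 8 of its 11 peaks away from the promoter. A lost or gained peak was assigned to 9661 and 4397 protein-coding genes respectively by nearest TSS, and 2964 of these had both.

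Of the pre-B cell receptor genes, the surrogate light chain promoters stood lower in preB than in proB cells. Vpreb1 had a promoter fold of 55.6 in WT proB and 21 in WT preB, a log2 ratio of -1.40. Vpreb2 went from 36.6 to 7.01 (log2 ratio -2.38), and 3 of its 6 peaks were lost. Igll1 went from 141 to 81.3. These are set beside a median log2 ratio of 0.14 over the 13371 promoters with a peak in both libraries, of which 3.40% were below -1 and 0.643% above 1. Vpreb1 and Vpreb2 are near-identical genes, and the sources used here do not say how reads that match both were placed. The signalling partners of the receptor were level or higher in preB, since Cd79a had promoter folds of 80.1 and 81.3 and Cd79b of 33.6 and 48.9. Of the 29 proB peaks of the 6 receptor component genes 7 were lost, and of their 25 preB peaks 1 was gained. The lost share of 24.1% (12.2 to 42.1) was close to the 26.7% over all peaks.

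Kit, the receptor for stem cell factor, lost most of its peaks. Of 13 proB peaks nearest to Kit 11 were lost and none was gained, so that preB cells kept only the promoter peak, at a fold of 14.2 against 46.7 in proB, and an intronic peak 29.7 kb into the gene, at 8.77 against 25.8. The lost Kit peaks had folds between 3.32 and 10.5 and lay between 3.23 and 187 kb from the TSS. WT pre-proB cells had a peak at 6 of these 11 sites, Rescue proB at 1 and Rescue preB at 0. Among the 2518 genes with at least 10 proB peaks the median share lost was 25%, and 22 genes, Kit among them, lost 80% or more. The list of progenitor receptors as a whole lost 28 of 87 proB peaks, 32.2% (23.3 to 42.6), an interval that includes the 26.7% over all peaks. Kit held 11 of the 28, and within 50 kb of a start site 17 of 68 were lost (25%). In this list Flt3, a cytokine receptor of early progenitors, lost 4 of 10, while its promoter fold was 91.6 in proB and 115 in preB.

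**Figure D2:**
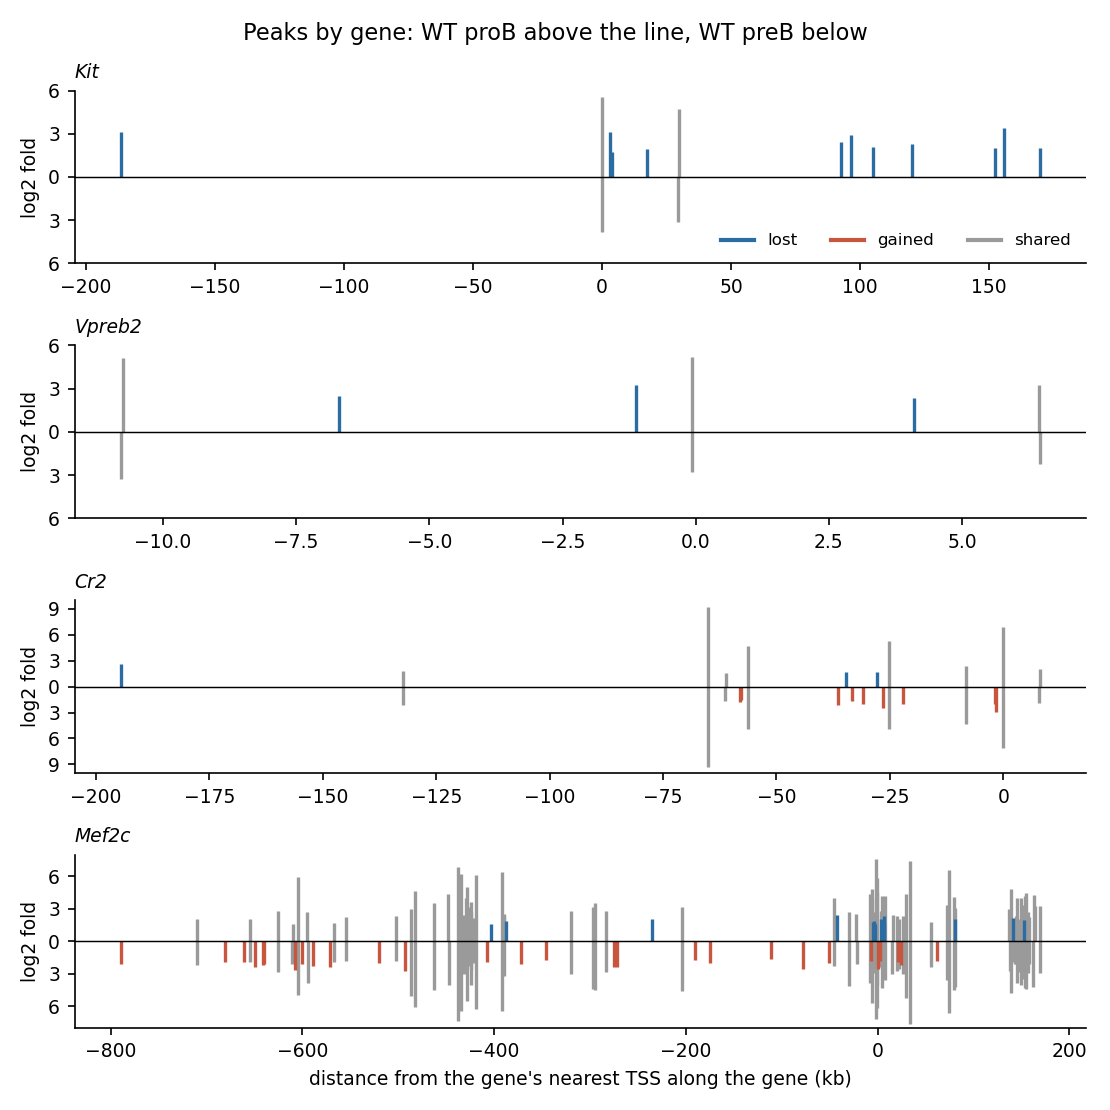
Peaks nearest to Kit, Vpreb2, Cr2 and Mef2c, placed by distance from the TSS in kb along the gene. The height is the log2 of the fold over background, drawn upward for WT proB and downward for WT preB, with lost peaks in blue, gained in red and shared in grey. Kit shows 11 lost peaks and 2 shared ones, and Mef2c 28 gained peaks that reach 789.7 kb upstream of its start.

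The recombination and end joining genes kept nearly all of their peaks. Of their 48 proB peaks 2 were lost, 4.17% (1.15 to 14.0), both at Dntt, which adds untemplated bases at heavy chain joins. The Rag1 promoter, whose product cuts the antigen receptor loci with Rag2, had a fold of 52.2 in proB and 64.4 in preB, and Rag2 had 31.4 and 34.4. Of the 7 gained peaks of the list 5 lay at Hmgb1, a DNA bending protein that assists RAG cleavage, with folds of 3.29 to 4.16. The intracellular signalling genes downstream of the receptor had 58 of 331 peaks lost (17.5%) and 28 of 310 gained (9.03%). In this list Syk, the kinase that the receptor activates, had a promoter fold of 23.1 in proB and 44.1 in preB and 5 gained peaks of 22, and Inpp5d, the phosphatase SHIP1 that opposes PI3 kinase, had 107 and 47.8. Genes of the IL-7 receptor pathway, which feeds proB growth, had 35 of 162 peaks lost (21.6%) and 13 of 150 gained (8.67%), with intervals (16.0 to 28.6 and 5.13 to 14.3) that include the 26.7% and 10.7% over all peaks. The lost shares of the recombination and signalling lists lay below 26.7%. No promoter of the IL-7 receptor pathway list moved by more than 0.5 on the log2 scale, and the Il7r promoter itself had folds of 27.3 and 29.6.

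B-lineage transcription factor genes held many lost and many gained peaks side by side. Of 946 proB peaks at 24 genes 21.2% (18.8 to 24.0) were lost, and of 902 preB peaks 15.5% (13.3 to 18) were gained, which lies under the 26.7% and above the 10.7% over all peaks. Mef2c, a factor that acts downstream of the pre-B cell receptor, had the most gained peaks of the list, 28 of 101, with folds between 3.07 and 6.58. A peak of Rescue preB overlapped 21 of these 28, of Rescue proB 13 and of WT pre-proB 4. Mef2c also lost 15 of 89 peaks, and its promoter fold was 195 in proB and 143 in preB. Bcl11a gained 16 of 61 peaks and lost 5 of 51, while Ets1 gained 15 of 43 and lost 13 of 41. Lef1, a factor of the proB stage that acts with beta-catenin, lost 10 of 35 peaks (close to the share over all peaks) and gained 0 of 28, and its promoter fold was 29.9 in proB and 46.2 in preB. At Erg 11 of 48 peaks were lost and 4 of 40 gained, and its strongest promoter peak had a fold of 44.9 in proB and 30.7 in preB. The Runx3 promoter had a fold of 42.6 in proB and 13.6 in preB. The other direction was seen at Ikzf3 (Aiolos), a zinc finger factor that rises at the preB stage, with 12.6 and 27.2. Among the factors of later stages the Spib promoter, an ETS factor of B cells, went from 83.3 to 174. Irf4, which promotes light chain recombination, gained 8 of 26 peaks and lost 8 of 27, in a list that lost 22.9% and gained 13.7% of its peaks.

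Genes of the surface of late preB and mature B cells lost a smaller and gained a larger share than all peaks. Of 205 proB peaks 22 were lost, 10.7% (7.19 to 15.7), and of 227 preB peaks 40 were gained, 17.6% (13.2 to 23.1), against 26.7% and 10.7% over all peaks. With lists of equal length these were 7.43% and 26.4%, against 18.6% and 16.8%. Cr2, a complement receptor of mature B cells, gained 9 of 17 peaks, all outside its promoter, with folds of 2.85 to 7.89. Cd38 gained 5 of 12 and Cd180, a toll-like receptor family member, 6 of 41. The Cd2 promoter, a surface protein turned on in preB cells, had a fold of 56.1 in proB and 142 in preB, and Cd83, an activation marker, 14.6 and 27.2. Cd74, the invariant chain of MHC class II, had 29.4 and 50.2. No promoter of the 22 genes measured in both libraries was lower by more than 0.5 on the log2 scale in preB, and 6 were higher, against 9.03% lower and 9.33% higher over all promoters. The promoter of Il2ra, whose product CD25 marks preB cells, did not follow them, with folds of 37.5 and 30.7.

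Genes of the cell cycle and quiescence had 45 of 293 peaks lost (15.4%) and 46 of 292 gained (15.8%), against 26.7% and 10.7% over all peaks, the shares against which the lists that follow are read as well. Cdkn1a, an inhibitor of cyclin-dependent kinases, lost 0 of 7 and gained 4 of 11 peaks, 2 of them at promoters, and Btg1, an antiproliferative gene, gained 14 of 55 and lost 10 of 55. Myc, which drives growth, gained 9 of 38 and lost 4 of 32. Of the homing and adhesion genes 45 of 256 peaks were lost (17.6%), and the promoter of the integrin gene Itgal had folds of 25.7 and 10.5. Among genes of the sort and of all B cells, 20 of 118 peaks were lost and 22 of 123 gained (17.9%). Within 50 kb of their start sites 3 of 58 were gained (5.17%), against 9.06% of all preB peaks at that distance. This lower share rests on few peaks. Spn, which encodes the CD43 that separated the populations, had a promoter fold of 22.3 in proB and 15.1 in preB, and Ptprc, which encodes B220, gained 14 of 68 peaks. Plasma cell genes had 19 of 97 peaks lost and 19 of 96 gained, of which 7 and 7 were at Prdm1 and 8 and 8 at Irf4. The 10 housekeeping genes lost 13 of 54 peaks (24.1%), close to the share over all peaks, and none of their promoters moved by more than 0.5 on the log2 scale.

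**Figure D3:**
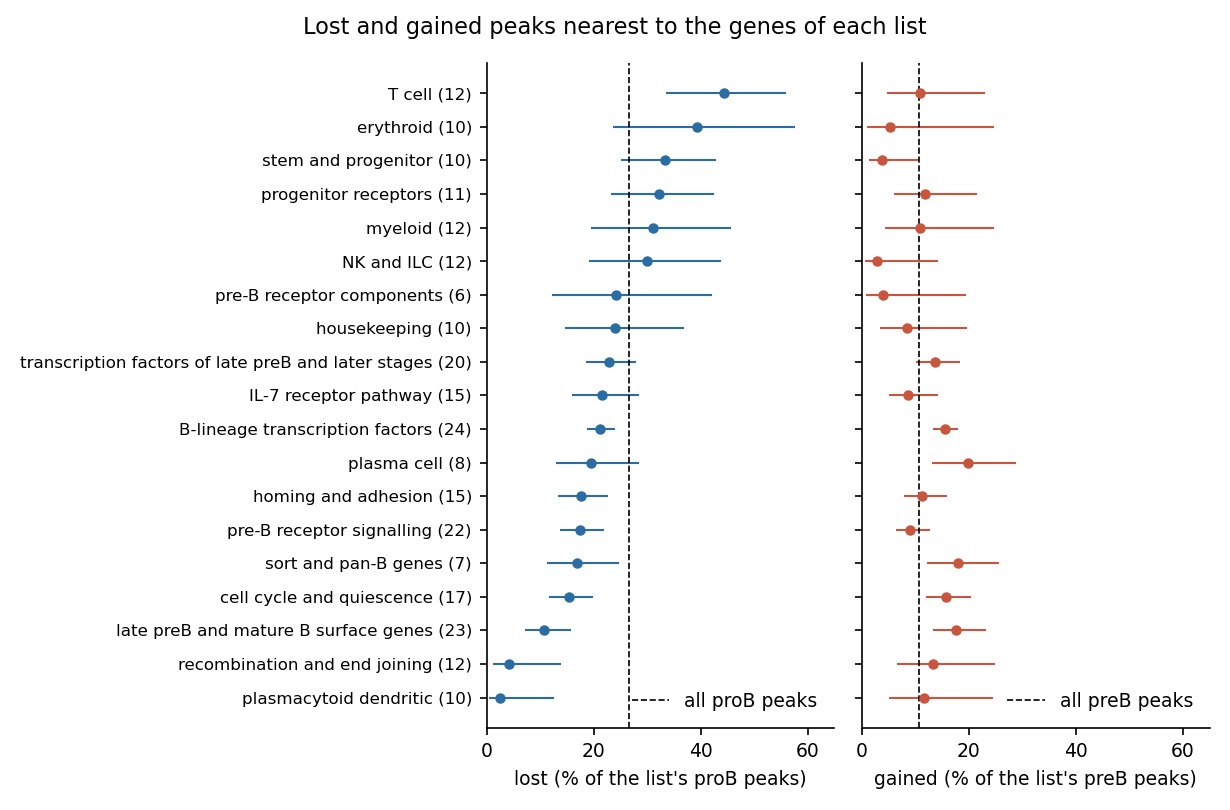
Percent of the proB peaks of each gene list that were lost (left) and of its preB peaks that were gained (right), with 95% Wilson intervals and the number of genes found in brackets. Dashed lines mark the share over all peaks, 26.7% and 10.7%. T cell genes sit highest among lost shares at 44.4%, plasmacytoid dendritic and recombination genes lowest, and late preB and mature surface genes lie left of the line for losses and right of it for gains.

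Genes of other lineages lost peaks at shares near or above that of all peaks. The T cell list lost 32 of 72 peaks, 44.4% (33.5 to 55.9), of which 9 were nearest to Gata3, 8 to Tcf7, 6 to Zap70 and 4 to Bcl11b. The 9 of Gata3 lay 76.9 to 1239 kb from its TSS. Within 50 kb of a start site the list lost 20 of 54 (37.0%), against 24.4% over all peaks. With lists of equal length 31.6% of its peaks were lost, against 18.6%. The stem and progenitor list lost 35 of 105, 33.3% (25 to 42.8), and gained 3 of 79, with 10 of 24 lost at Meis1 and 7 of 10 at Mecom. Rescue preB had a peak at 6 of the 10 lost Meis1 sites and 6 of the 7 lost Mecom sites, against 28.3% of all lost peaks. The promoter peak of Cd34, a surface marker of progenitors, had a fold of 15.1 in proB and was lost outright. The erythroid list lost 11 of 28, the myeloid list 14 of 45 and the NK and ILC list 15 of 50, with 4 of 5 lost at Cebpa and 3 of 3 at Gzma. The plasmacytoid dendritic list was the exception, with 1 of 41 lost and 5 of 43 gained. Of the promoters of these lists with a peak in both libraries, 7 were lower in preB by more than 0.5 on the log2 scale, among them Lck (22.9 and 8.55), Prf1 (29.5 and 12.9) and Slamf1 (12.7 and 4.16), and 5 were higher, namely Siglech (18.6 and 37.3), Ccr9, Tlr9, Hhex and Tcf7 (10.3 and 17.1). Promoters with a peak in both libraries numbered 4 each in the T cell and erythroid lists and 8 in the stem and progenitor list. The NK and ILC, plasmacytoid dendritic and myeloid lists had 5 each. Over all promoters 9.03% were lower and 9.33% higher by more than 0.5. Whether a few cells of another lineage within the CD43+ gate contributed to the losses in these lists was not tested. Of the 12 T cell genes 6 had a promoter peak in proB and 4 in preB. Neither library had a peak nearest to Cd3e or Cd3g and each had 1 at Cd3d, while Cd4 lost 1 of 3 proB peaks and Cd8a and Cd8b1 lost their only 1 each.

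**Figure D4:**
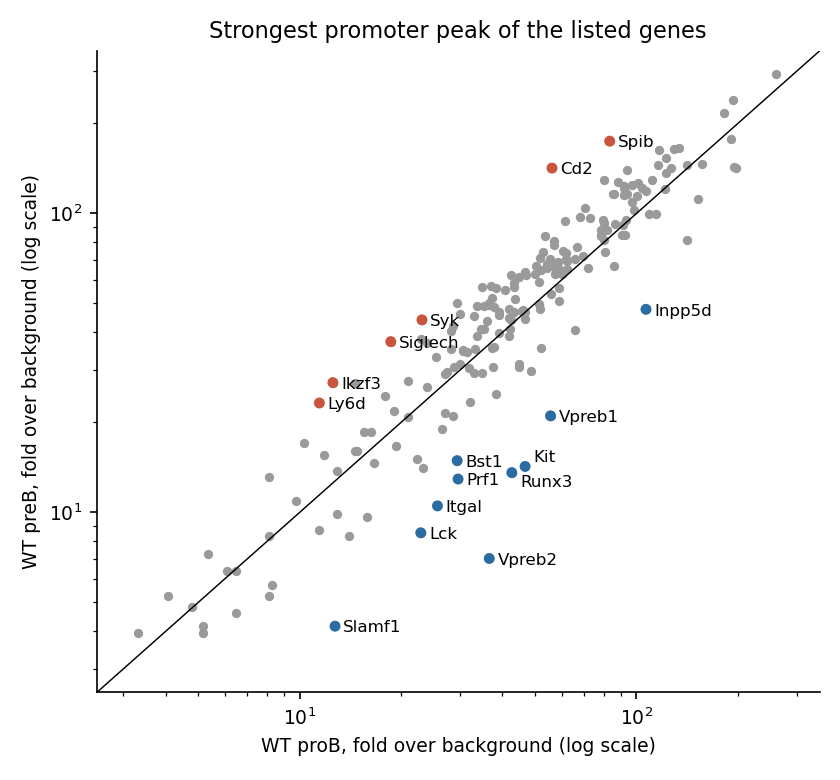
Fold over background of the strongest promoter peak of each listed gene in WT proB (horizontal) and WT preB (vertical), both on log scales, for listed genes with a peak in both that are reported here. The line marks equal folds, and the genes farthest from it are named, lower in preB in blue (Vpreb2, 36.6 and 7.01) and higher in red (Cd2, 56.1 and 142).

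The heavy chain locus held many lost peaks and the kappa locus few. At Igh (chr12:113254830-116010093) 87 of 208 proB peaks were lost, 41.8% (35.3 to 48.6), and 33 of 147 preB peaks were gained, 22.4% (16.5 to 29.8). At Igk (chr6:67555497-70726966) 24 of 213 proB peaks were lost, 11.3% (7.69 to 16.2), and 47 of 228 preB peaks were gained, 20.6% (15.9 to 26.3). The gained share of both loci lay above the 10.7% over all peaks. Of the 87 lost Igh peaks 65 lay at the promoters of annotated segments or genes, as did 32 of the 47 gained Igk peaks. With lists of equal length 35.4% of Igh proB peaks were lost and 28.1% of Igk preB peaks were gained. The genes Rpia and Eif2ak3 beside Igk, the found members of a kappa locus list, lost 13 of 124 peaks and gained 34 of 139, counts that mostly repeat peaks of the locus. Within 50 kb of the start sites of this pair 11 of 31 were lost and 0 of 21 gained. The lambda locus Igl lost 2 of 12 and gained 8 of 18. Among the T cell receptor loci, which B cells do not rearrange productively, 26 of 39 peaks were lost at Tcra and Tcrd, 66.7% (51.0 to 79.4), and 23 of 40 at Tcrb, 57.5% (42.2 to 71.5), with 1 and 0 gained, while Tcrg lost 4 of 13 and gained 1 of 10. With lists of equal length the lost shares were 61.8% at Tcra and Tcrd, 48.4% at Tcrb and 2 of 10 at Tcrg. Of the lost Tcrb peaks 14 were already present in WT pre-proB, and of the gained Igk peaks 4 of 47 were. Rescue preB had a peak at 16 of the 26 lost Tcra and Tcrd sites and at 6 of the 23 lost Tcrb sites.

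The genes with the most lost peaks by nearest TSS began with a pair beside or within Igh, Zfp386 (45 of 111) and Adam6a (41 of 85), whose counts repeat those of the locus. Then came Adgrl2 (35 of 100) and Adgrl4 (24 of 36), adhesion G protein-coupled receptors, Pde4d (29 of 87), a cAMP phosphodiesterase, Rapgef2 (24 of 54), which activates the GTPase Rap1, St6galnac5 (24 of 46), a sialyltransferase, Dhrs3 (22 of 35), which reduces retinal, Maf (22 of 47), a bZIP transcription factor, and Smad7 (22 of 63), an inhibitor of TGF-beta signalling. This order is by count and not by share. Adgrl2 lost 35%, Pde4d 33.3% and Smad7 34.9% of their peaks, against 26.7% over all peaks. Among genes with at least 10 proB peaks the 95th percentile of the lost share was 58.9%. Adgrl4 (66.7%) and Dhrs3 (62.9%) lay above that percentile. St6galnac5 and Dhrs3 gained 0 of 24 and 0 of 13 peaks. The lost peaks of Maf had folds of 2.95 to 8.68, and WT pre-proB had a peak at 10 of the 22. Genes with many gained peaks began with Rpia (34 of 129), which flanks Igk and had 26 of these 34 at promoters of annotated segments or genes, then Mef2c, Zfp608 (25 of 85), Pcdh9 (21 of 39), a protocadherin, Sel1l (20 of 50), part of the machinery for degrading misfolded proteins, Zfp386 (20 of 84), Marcks (19 of 55), a substrate of protein kinase C, Ttll7 (19 of 37) and Inpp4b (18 of 45), a phosphoinositide phosphatase. Over all peaks 10.7% were gained, and among genes with at least 10 preB peaks the 95th percentile of the gained share was 33.3%. Rpia gained 26.4% and Pcdh9 53.8%. At Pcdh9 no gained peak was at a promoter. WT pre-proB had a peak at 4 of the 21 gained Pcdh9 sites, Rescue proB at 8 and Rescue preB at 15. By position, the 100 kb window with the most lost peaks held the Ugt1a genes of bile pigment conjugation, with 27 of 51 peaks lost and 0 of 37 gained. This window was chosen after its values were seen.

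Among single distal peaks, the strongest lost were in introns of Zbtb20 (fold 35.4), a zinc finger repressor, Chst11 (32.9), a chondroitin sulfotransferase, Slc24a3 (32.5), a sodium and calcium exchanger, and Rbpj (32.5), the DNA-binding partner of Notch, and between genes near 1110032F04Rik (31.9). WT pre-proB shared the first 4 of these. Rescue preB had a peak at the Chst11 and Slc24a3 sites, and Rescue proB at the Chst11, Slc24a3 and Rbpj sites. Promoters here include those of non-coding transcripts, so the nearest protein-coding gene may be far away. The strongest lost at promoters lay in the Tcrb locus (nearest to Try4, fold 24.7), at Fermt1, near Fut8 and Setd4 (22.7 each) and near Gm17428 (22.5). The strongest gained distal peaks were in an intron of Prim2 (19.1), the large subunit of DNA primase, in an intron of a transcript nearest to Tbc1d5 (18.2), in an exon of Gpam (18.4), and between genes near Brd1 (18.4) and Ets2 (17.5). The strongest gained at promoters were nearest to Clint1 (13.8), Numb (13.6), an inhibitor of Notch signalling, Alpk2 (13.4), Hira (12.7) and Rpia (11.6). The peak nearest to Hira lies 190117 bp from that gene at chr16:19066907-19067380, within the Igl locus. The Rescue preB library had a peak at all 10 of these gained sites, and Rescue proB at the Numb, Alpk2, Hira, Prim2, Brd1, Tbc1d5 and Ets2 sites. WT pre-proB had a peak at the gained Numb, Alpk2, Hira, Prim2 and Brd1 sites, so these were not first seen in preB.

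Lost and gained peaks carried different transcription factor motifs. Each motif was sought on both strands within 100 bp of the summit, and matches to different motifs may share bases. ETS (ACNGGAAG) was present in 11.2% of lost (10.8 to 11.6), 5.10% of gained (4.64 to 5.59) and 9.32% of shared proB peaks, and in 9.23% of all peaks of both lists. RUNX (TGTGGTT) was present in 11.1%, 6.79% and 8.51% in that order and 8.65% of all, LEF/TCF (CTTTGAT) in 4.66%, 2.59% and 2.70% (2.89% of all), and EBF1 (TCCCNNGGGA) in 2.93%, 1.15% and 2.16% (2.16% of all). The order was turned for PU.1 (GAGGAAGT), with 5.56% of lost and 8.10% of gained peaks (6.73% of all), for the composite of ETS and IRF sites (GGAANNGAAA) with 2.74% and 5.22% (4.12% of all), for the E-boxes CAGGTG with 18% and 22.7% (19.8% of all) and CAGCTG with 16.9% and 21.8% (19.5% of all), and for OCT (ATGCAAAT) with 2.13% and 3.49% (2.64% of all). The 95% intervals of lost and gained did not overlap for any of these 9 motifs. Of the others searched, SP (GGGCGGG) was in 3.94% of lost and 2.12% of gained peaks against 11.1% of shared proB peaks, ISRE in 3.95% and 2.99%, Ikaros (TTGGGAA) in 3.44% and 2.66%, FOXO (TGTTTAC) in 2.48% and 3.33%, KLF (GGGTGTGG) in 2.44% and 3.05%, and AGATAAG, which GATA factors bind, in 2.06% and 2.46%. Over all peaks of both lists these were in 9.67%, 3.72%, 2.86%, 2.66%, 2.66% and 1.90% in that order. The ETS and PU.1 letters can share a GGAAG core, and 165 of the 2748 lost peaks with ETS also held PU.1. Read backwards, as a check on base composition, the ETS letters were in 4.12% of lost and 4.02% of gained peaks, those of RUNX in 2.67% and 2.62%, and those of PU.1 in 1.61% and 1.40%. The reversed letters of LEF/TCF (2.88% and 3.22%) and of the composite of ETS and IRF sites (1.90% and 1.43%) went against the motif. For some other motifs the reversed letters differed in the same direction as the motif itself. Among these were EBF1 (0.666% and 0.537%) and OCT (0.0776% and 0.146%). Further reversed letters also kept the direction. They were in 3.31% of lost and 4.66% of gained peaks for FOXO, and 1.83% and 2.27% for AGATAAG. For ISRE they were in 2.99% and 2.28%, and for the CAGGTG E-box in 6.58% and 7.56%. The SP letters read the same backwards, so SP had no such check.

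The motif shares were also compared at like strength, by bins of −log10 q over distal peaks, since lost and gained peaks were weak. At −log10 q under 5, ETS was in 9.56% of lost and 5.95% of shared proB peaks, and at 20 or more in 17.1% of 3021 lost and 11.4% of shared ones. EBF1 went from 2.14% to 4.97% of lost peaks over the same bins, against 1.03% and 2.91% of shared proB peaks, and LEF/TCF from 4.03% to 7.12% against 2.14% and 3.34%. In gained distal peaks the CAGGTG E-box went from 18.9% to 36.8% (167 of 454), against 17.8% and 23.3% of shared preB peaks, while ETS went from 6.04% to 3.08%. The gained excess did not hold at 20 or more for PU.1, in 6.39% of gained (4.48 to 9.02), 6.02% of lost and 8.97% of shared preB peaks, nor for OCT, in 2.42% of gained (1.36 to 4.29) and 3.32% of shared preB peaks. At 20 or more CTCF was in 0.993% of lost and 8.73% of shared proB peaks. It was in 1.10% of gained and 8.79% of shared preB peaks in that bin. GC and repeat content differed between the classes as given above, and their part in the motif shares was not tested. CTCF, AP-1, NF-kB (GGANTTTCC), STAT5 (TTCCNNGGAA), MEF2, PAX5 core (GCGTGAC), EGR (GCGTGGGCG) and NR4A (AAAGGTCA) matches, which all peaks held in shares from 0.219% (EGR) to 8.42% (CTCF), had shares in lost and gained peaks whose difference had a 95% interval that included 0, and which for CTCF ran from -0.939 to 0.263 percentage points and for AP-1 from -0.682 to 0.586.

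**Figure D5:**
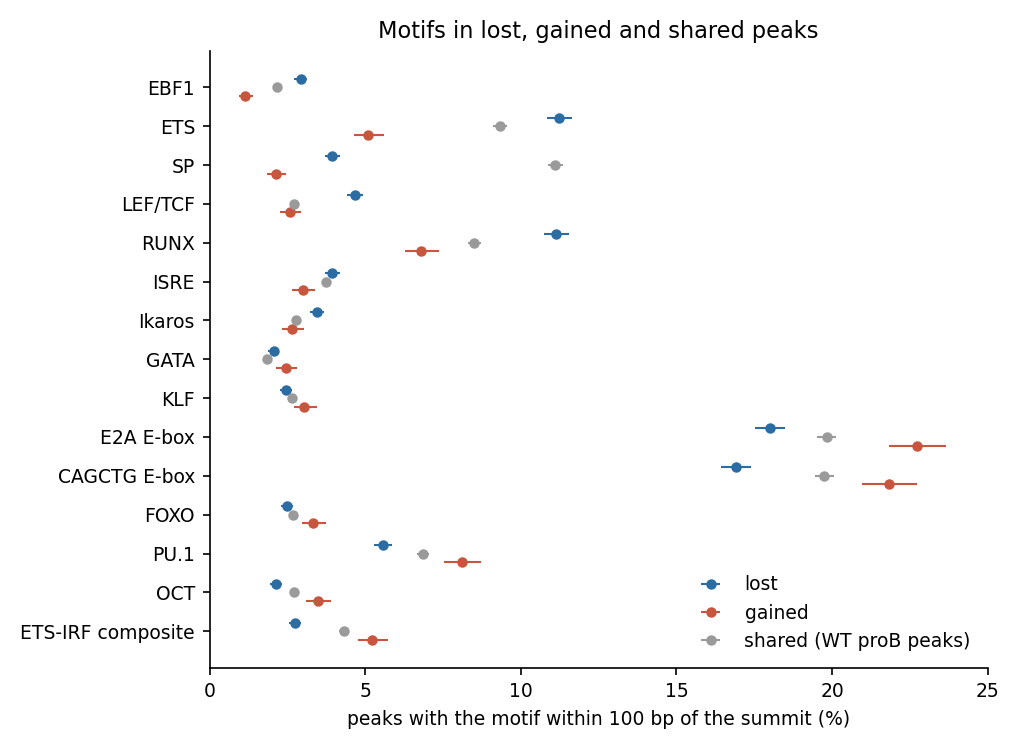
Percent of lost (blue), gained (red) and shared proB (grey) peaks with each motif within 100 bp of the summit, with 95% Wilson intervals, for the motifs whose lost and gained shares differ by more than the 95% interval of the difference. ETS, RUNX, LEF/TCF and EBF1 are more frequent in lost peaks (ETS 11.2% and 5.10%), and PU.1, the composite of ETS and IRF sites, E-boxes and OCT in gained peaks, while SP is most frequent in shared peaks (11.1%).

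Lost peaks fell into a class that pre-proB cells already had and a larger class that they lacked. A WT pre-proB peak overlapped 9421 lost peaks, 38.5% (37.9 to 39.1), and 2719 gained peaks, 33.2% (32.1 to 34.2), against 78.9% of shared proB peaks. The classes differed in motifs. EBF1 matches were in 0.892% of lost peaks present in WT pre-proB and in 4.20% (3.89 to 4.53) of those absent there, whereas RUNX was in 14.3% and 9.17%, and ETS in 11.1% and 11.3%. Among gained peaks OCT was in 1.21% of those present in WT pre-proB and 4.62% of those absent, and PU.1 in 11% and 6.66%. Lost peaks present in WT pre-proB were also a little stronger, with a median fold of 4.43 against 4.06.

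The Rescue libraries, which took no part in defining the classes, split lost and gained peaks by stage. By their titles, Rescue proB held 41.6% of lost peaks and Rescue preB 28.3%, while for gained peaks the shares were 44.4% and 70.3%. Of the lost peaks 19.4% were in Rescue proB and not Rescue preB and 6.07% the reverse, and of the gained peaks 30.9% were in Rescue preB and not Rescue proB and 4.95% the reverse. No other library had a peak at 38.4% of lost and 19.7% of gained sites, against 1.93% of shared proB peaks. At promoters, 422 genes with peaks in all 4 libraries had a WT log2 ratio of preB over proB below -1, and 372 of them (88.2%) were below the median of all genes in Rescue too. Of 81 genes with a WT ratio above 1, 72 (88.9%) were above it, and 64.5% of all 13243 genes were on the same side of the median in both. In Rescue the folds were 25.2 and 16.9 at Vpreb1, 25.2 and 19.6 at Kit, 46.1 and 16.1 at Runx3, and 70.4 and 126 at Cd2. Not all named promoters kept the WT direction. Erg had folds of 44.9 and 30.7 in WT but 33.6 and 39.6 in Rescue, and Il2ra 37.5 and 30.7 but 31.4 and 31.8. The source names of the Rescue libraries give other stages than their titles. Read that way, the shares of the 422 and 81 genes on the same side become 58.2% of 404 and 53.5% of 71, and Rescue proB exceeds Rescue preB by 1.20 rather than 13.3 percentage points among lost peaks, and the same difference among gained peaks is -5.54 rather than -25.9. The Rescue folds of single genes above follow the titles.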

How the data were processed

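ATAC-seq was performed on sorted mouse bone marrow populations, 1 library per group. Per the study's methods and the labels, reads were de-multiplexed with CASAVA 1.8.2, processed with Picard, aligned to mm10 with Bowtie2, and peaks were called per library with MACS2. The sources used here give neither their options nor the other versions. The methods name sonication and the labels Tn5 for fragmentation, and either choice affects peak number and width. Each deposited list has 10 columns. The deposited score is the whole-number part of 10 times the −log10 q. The fold is a ratio of summit to background pileup, as the authors deposited it, and the p-value and q-value of each summit were deposited as −log10 values. Folds were compared between libraries as multiples of each library's own background. The background pileup was computed from the step between folds, and read totals were not used here.

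Peaks were intersected in Python 3.11.15 (numpy 2.4.6, pandas 2.3.3) with a minimum overlap of 1 bp. The basic set of GENCODE M21 gave the TSS and RefSeq GRCm38 the bases. Each peak was assigned to the protein-coding gene with the TSS nearest its summit. Repeats are the bases in lower case in the genome file. Intervals are Wilson intervals (statsmodels 0.14.6), and the interval of a difference is Newcombe's. With 1 library a group no test was made. Overlap and motif code was tested on simulated data. Members, gene lists and motifs were chosen with earlier results of these data known. Named genes were those of the 20 lists, the nearest genes of the 5 strongest promoter and 5 strongest distal autosomal peaks of each class, the 10 genes with the most lost or gained peaks, and the 10 strongest promoters with a peak in only 1 library. The kappa and lambda constant genes were not among the protein-coding genes and have no values. A few genes and a marker that these rules name are not reported here. Groups followed the titles. Alternatives changed list length, overlap, promoter window, TSS set, gene distance, motif window and the reading of the Rescue labels.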

Additional observations from a re-analysis of the deposited data

How the results depend on the processing

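With 1 library a side, no alternative speaks to variation between animals. A site without a peak can still have held fragments, since the weakest called summits held 12 in WT proB and 11 in WT preB. The lost and gained shares moved with list length and overlap, and the promoter shares also with the promoter window and TSS set. Lists of equal length gave 18.6% lost and 16.8% gained (11.9% and 7.84% of them at promoters), the same whether ranked by −log10 p or by fold. Both lists cut to 0.5 of the shorter length gave 17.1% and 16.6% (14% and 11%). A −log10 q of at least 10 gave 23.2% lost and 11.4% gained. A reciprocal overlap of 50% gave 34.2% and 21.1%, and here the promoter shares of lost (14.6%) and gained (14.8%) peaks no longer stood in the order of the other settings. Requiring the summit to lie in a peak of the other list gave 27.8% and 11.5% (13.1% and 7.87%), and counting a gap of at most 250 bp as shared gave 25.6% and 10.1% (11.8% and 6.39%). A promoter window of 500 bp put 8.22% of lost and 4.06% of gained peaks at promoters, 2500 bp put 22.6% and 15.9%, and TSS of protein-coding genes 8.18% and 3.41%. The other 6 values of these shares, for a common fold minimum and the promoter shares at the stricter q, stayed within their 95% intervals. The cause of these shifts was not tested beyond what each setting does by construction. Of 120 gene list values 98 stayed within the interval, as did 22 of 24 for the receptor loci. For the shares of peaks present in other libraries, all 14 values moved outside the interval. The sizes of those shares therefore hold for the main setting only. For motifs, only the 15 differences whose main interval excluded 0 were counted. Of their 60 values 37 stayed within the interval, and none changed sign. CTCF was not among the 15. With lists of equal length it was in 5.04% of lost and 7.99% of gained peaks, a difference outside its main interval. The reading of the Rescue promoter ratios by source name was chosen after seeing the data.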
